A study of Mus musculus with 2 samples.

Results

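Mesothelial cells of the mouse uterus were taken from 2 single-cell libraries by the UMIs (unique molecular identifiers, counted molecules of RNA) of 4 marker genes. The members were selected on measured values: each barcode had 1000 UMIs or more, 500 detected genes or more and no more than 20% mitochondrial UMIs, at least 3 UMIs summed over Upk3b, Lrrn4, Gpm6a and Upk1b, and 0 UMIs of Ptprc, the pan-leukocyte gene, and of Epcam, the epithelial adhesion gene. The rule found 53 barcodes among 7076 that passed the limits on quality, of which 34 bore the label control and 19 the label cKO. One library came from Prickle1 f/f females (control) and the other from Prickle1 f/f MiC females (cKO). Both were C57BL/6J, and the genotype field reads wild-type for both. Each library pooled the whole uteri of 3 mice aged 6 months, digested in collagenase for 5 hours, and was made with 10x Genomics 3' chemistry. The labels do not spell out MiC, and the pools cannot be split by mouse.

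Mesothelium is the simple squamous layer that covers the organs and walls of the body cavities, and over the uterus it forms the outer surface of the perimetrium. Its cells derive from mesoderm yet carry epithelial features. They form a polarised sheet with microvilli and simple keratins, while they retain vimentin and the transcription factor Wt1. They secrete a lubricating surface coat, balance fibrin deposition and removal, and are known to take on mesenchymal features after injury.

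Of the rule genes, Upk3b and Upk1b encode uroplakins, membrane proteins first described in the bladder lining, Lrrn4 encodes a leucine-rich repeat membrane protein, and Gpm6a encodes a membrane glycoprotein best known in neurons. The sequences before the start sites of Upk3b, Lrrn4 and Gpm6a are shown because the results separate the first and the second, seen in mesothelial cells, from the third, seen also in cells with lymphatic markers. They are RefSeq windows of GRCm38.p6, 250 bases ending at the base before the start, written 5' to 3' on the gene's strand: Upk3b at chr5:136038246-136038495 on the plus strand, Lrrn4 at chr2:132880863-132881112 on the minus strand, and the first of 2 Gpm6a windows at chr8:54779184-54779433 on the plus strand. Upk1b was not matched in the table. The bases after the start were found in a transcript of the gene for Upk3b and Lrrn4, but for neither Gpm6a window. The Gpm6a start site was thus not borne out by that check. Capitals mark the core GGAATG or its reverse complement CATTCC, the letters bound by TEAD factors.
Upk3b: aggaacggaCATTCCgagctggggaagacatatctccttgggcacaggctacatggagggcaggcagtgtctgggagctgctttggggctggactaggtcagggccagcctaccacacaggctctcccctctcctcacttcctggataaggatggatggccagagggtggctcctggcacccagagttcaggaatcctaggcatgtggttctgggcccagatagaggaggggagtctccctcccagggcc
Lrrn4: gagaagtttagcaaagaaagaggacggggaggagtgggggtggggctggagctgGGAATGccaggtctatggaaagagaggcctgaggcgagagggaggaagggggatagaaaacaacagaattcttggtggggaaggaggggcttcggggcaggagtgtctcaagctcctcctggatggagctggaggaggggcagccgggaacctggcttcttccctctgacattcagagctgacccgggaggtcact
Gpm6a: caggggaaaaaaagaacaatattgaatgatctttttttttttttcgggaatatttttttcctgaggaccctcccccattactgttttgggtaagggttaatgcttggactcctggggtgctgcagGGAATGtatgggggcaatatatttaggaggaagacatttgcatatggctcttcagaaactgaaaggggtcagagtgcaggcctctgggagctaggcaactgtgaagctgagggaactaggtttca
Each of these windows held 1 match on either strand, and the second Gpm6a window held 0. The letters were found in 12.6% of 32851 windows of the same length. The GATA core AGATAA, found in 9.99% of windows, and the E-box CAGCTG, found in 13.0%, had 0 matches in all 4 windows. No matches of different motifs overlapped. A match describes the letters only.

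The values of the rule genes chose the members and are a description. In the members labelled control, Upk3b had 171 UMIs, Lrrn4 63, Gpm6a 140 and Upk1b 62. In those labelled cKO the counts were 78, 33, 111 and 29. The marker sum ran from 3 to 63 with a median of 7.5 in control and from 3 to 79 with a median of 5 in cKO. Just inside the threshold, at a sum of 3, lay 5 barcodes in each library, and just outside, at a sum of 2, lay 9 control and 5 cKO barcodes. All 5 control barcodes at 3 UMIs had a UMI of Msln, Wt1 or Krt19, which are mesothelial genes that the rule did not use, but 0 of the 5 cKO barcodes did.

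Those 5 cKO barcodes carried markers of other cell types. Of the 53, 7 had from 54 to 437 summed UMIs of Prox1, the lymphatic fate regulator, Mmrn1, a multimerin of lymphatic endothelium, and Lyve1, its hyaluronan receptor. They were 2 control and 5 cKO barcodes. All 7 had 0 UMIs of Upk3b, Lrrn4 and Upk1b and of Msln, Wt1 and Krt19, and they met the rule through Gpm6a alone. Another 2 barcodes, both cKO, had 17 and 258 summed UMIs of the macrophage and monocyte genes Lyz2, Pf4, C1qa and Cd14. The other 44, 32 control and 12 cKO, had at most 3 UMIs of the lymphatic genes and at most 2 of the myeloid genes, and are called mesothelial-marked here. All 32 control and 11 of the 12 cKO cells had a UMI of Msln, Wt1 or Krt19. Such a UMI is not confined to mesothelium. In the fibroblast class described below, 53.6% of control and 54.4% of cKO cells had a Wt1 UMI. In the epithelium class, 95.4% and 83.8% had a Krt19 UMI. The limits of 10 lymphatic and 5 myeloid UMIs were chosen after the values were seen, so levels are described in the 44 and differences between the libraries are given with the value in all 53 beside most of them. In the separate class of cells with at least 3 UMIs of Prox1 and Mmrn1, outside the members, Gpm6a stood at 30.2 CPM (UMIs per 1000000) in control and 28.5 CPM in cKO, while Upk3b, Lrrn4 and Upk1b were at 0. Cells with a marker sum of 3 or more were left out of that class as members, which caps its Gpm6a level. The 7 members with lymphatic markers held 24 Gpm6a UMIs in control and 17 in cKO.

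**Figure D1:**
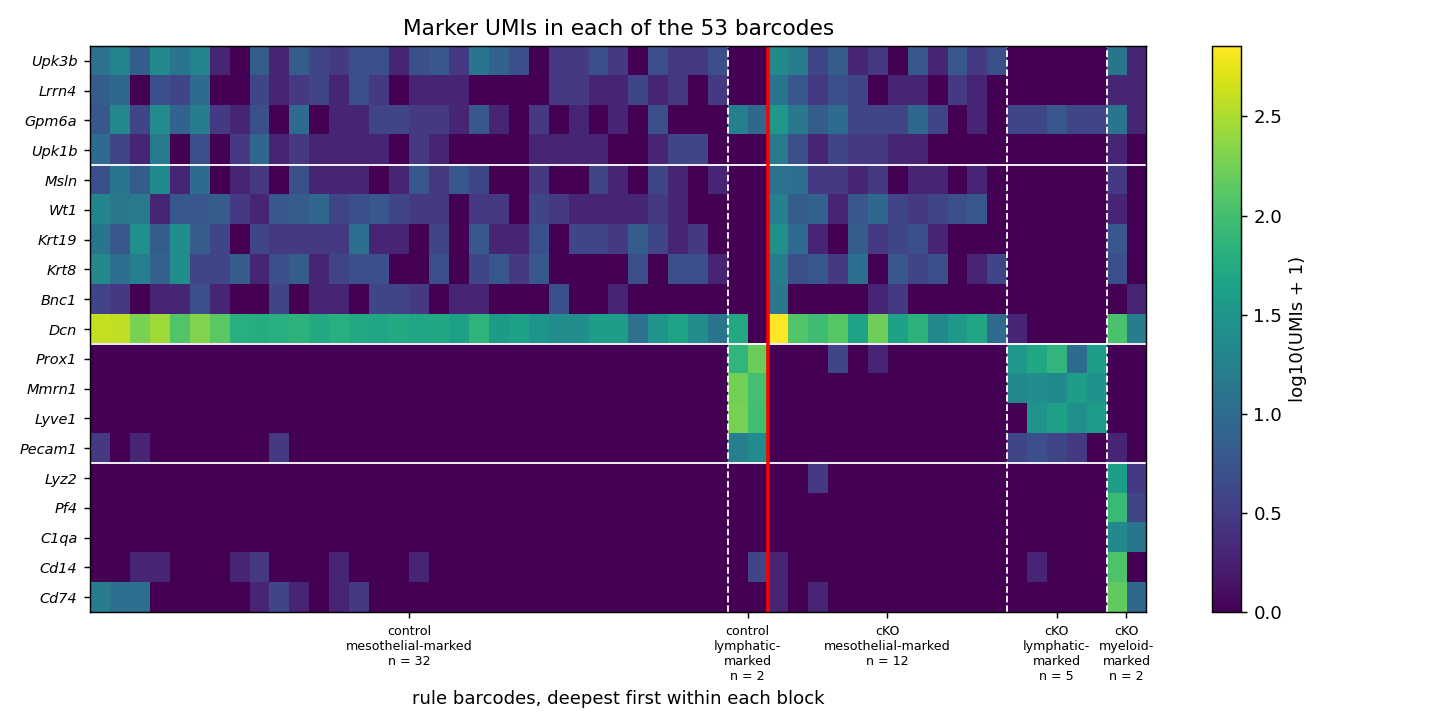
UMIs of mesothelial, lymphatic and myeloid genes (rows, colour in log10 of UMIs plus 1) in each of the 53 barcodes (columns), with the library labelled control left of the red line and blocks split by dashed lines. The 7 lymphatic-marked barcodes show Gpm6a without the other 3 rule genes, and the 2 myeloid-marked ones show both mesothelial and myeloid genes.

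Depth sets the precision of what follows. The libraries held 45035801 UMIs in control and 34261441 in cKO. The members had a median of 5949 UMIs in control (1033 to 48467) and 6975 in cKO (1457 to 51797), with no barcode shared between the libraries among them. Summed, the 53 gave 360455 and 201238 UMIs, and the 44 gave 284883 and 107840. A single cell supplied 17.0% of the control UMIs and 48.0% of the cKO UMIs of the 44. With 1 library per group there is no test between the groups, and intervals cover counting error only.

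Low lymphatic and myeloid UMIs in the 44 follow from how they were chosen, as does the absence of Ptprc and Epcam, and say nothing more of what these cells are. Of the lymphatic list (Prox1, Lyve1, Mmrn1, Flt4, Pecam1), only Pecam1 was above 0 in control, with 5 UMIs, and only Prox1 in cKO, with 4. Of the immune list (Ptprc, Cd3e, Nkg7, C1qa, Lyz2), all were at 0 in control, and Lyz2 had 2 UMIs in cKO. Of the lists whose genes the choice did not use, the urothelial, smooth muscle and blood endothelial ones were low but not all at 0. The fibroblast list (Pdgfra, Dcn, Lum, Col3a1) was not low, at 11155.5 CPM in control and 15680.6 CPM in cKO. The epithelial list (Epcam, Cdh1, Cldn3, Krt8, Krt18) stood at 948 and 853 CPM. Of the urothelial list, Upk2, Upk1a and Upk3a were at 0 in both libraries, while Krt20, a keratin, had 5 UMIs in 1 control cell. The smooth muscle list (Acta2, Myh11, Actg2, Cnn1, Des) had 29 UMIs in 16 of 32 control cells, 21 of them of Des, the muscle filament desmin, and 9 UMIs in 3 of 12 cKO cells. Of the blood endothelial list (Pecam1, Cdh5, Egfl7, Kdr), Cdh5 and Egfl7 were at 0 in both libraries, and Kdr, a VEGF receptor, had 8 UMIs in control and 5 in cKO. All Cdh5 UMIs of the 53, 54 in control and 64 in cKO, lay in the members with lymphatic markers, as did all of Egfl7. The low level of this list in the 44 thus follows in part from the choice. In the 53 the immune list summed to 0 CPM in control and 378 CPM in cKO, and the lymphatic list to 2483 and 2544 CPM. The blood endothelial list summed to 558 and 651 CPM in the 53.

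The mesothelial-marked cells shared keratins and surface proteins that the rule did not use. They were set beside fibroblasts of the same libraries (606 control and 1028 cKO cells with at least 1 UMI of Pdgfra, the platelet-derived growth factor receptor of stromal cells). Msln, the cell-surface protein mesothelin, stood at 319 CPM in control and 287 CPM in cKO and at 0 in the fibroblasts of both libraries. Krt19, a keratin of simple epithelia, stood at 491 and 482 CPM, against 4.59 and 0.215 CPM in fibroblasts. Free RNA in empty droplets held 5.83 and 1.64 CPM of Msln but 560 and 32.3 CPM of Krt19, so that Krt19 in the control cells was below its level in free RNA. In the 53, Msln stood at 252 and 164 CPM and Krt19 at 388 and 283 CPM.

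The other simple keratins followed Krt19. Krt8 stood at 512 and 482 CPM and Krt18 at 432 and 371 CPM, while epithelium (565 control and 37 cKO cells with at least 3 Epcam UMIs) had 4623 and 6894 CPM of Krt8. The epithelium class had 0 UMIs of Ptprc and of the rule genes by choice. Mesothelial keratin thus lay between fibroblasts and epithelium. Empty droplets held 1470 CPM of Krt8 in control and 180 CPM in cKO, and 690 and 93.6 CPM of Krt18. In the control library all 3 keratins were thus lower in these cells than in free RNA, and in the cKO library higher. The part of free RNA in the keratin counts was not tested. Epcam was 0 by the rule, Cldn3, a tight junction claudin, was at 0 in both libraries, and Cdh1, E-cadherin, had 1 UMI in control and 0 in cKO.

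Ranked by the lower of the 2 libraries' log2 ratios over fibroblasts, with 5 CPM added to each level, Msln (5.87) and Krt19 (5.69) led the genes outside the rule. Next came Fgf1, a fibroblast growth factor (5.63), Krt18 (5.35), Trdn, the junctional protein triadin of striated muscle (5.26), and Fmo2, a flavin monooxygenase (5.23). Pard6b, a polarity protein of the Par complex (5.19), Cxadr, a junctional adhesion protein (5.13), Stk26, a kinase (5.08), and Krt8 (5.01) followed. Nkain4 (4.96), Dpp4, a surface peptidase (4.80), Slc9a3r1, a scaffold of microvilli that binds ezrin (4.78), Zdbf2 (4.73) and Crip1, a cysteine-rich LIM protein (4.68), closed the first 15. The ranking used fibroblasts alone and does not set every gene apart from epithelium. Cxadr stood at 267 and 223 CPM here and at 235 and 250 CPM in epithelium. Stk26, in contrast, stood at 239 and 185 CPM here and at 0.0653 and 2.67 CPM in epithelium. Fmo2 stood at 1278 CPM in control and 844 CPM in cKO, in 19 of 32 and 8 of 12 cells. Crip1 was more abundant, at 4500 and 3459 CPM, and was seen in 32 of 32 and 11 of 12 cells, against 123 and 130 CPM in fibroblasts.

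Over all 53 the same ranking also brought up Prox1, Mmrn1, Lyve1, Reln and Stab1, genes of lymphatic endothelium. Those 5 genes had from 0 to 4 UMIs in each library's mesothelial-marked cells. Prox1, for example, stood at 663 and 1024 CPM in the 53 but had 0 and 4 UMIs in the 44. In the fibroblasts Prox1 was 0 by choice.

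Of 28 mesothelial identity genes listed beside the rule genes, 16 had at least 50 UMIs over both libraries in the 44, and 11 of the 16 were at least 4-fold above fibroblasts in both. Over all 1214 genes with that many UMIs the share was 9.8%. In the 53 the count was 10 of 17, and the share over 1948 genes was 8.16%. Members of the list outside the 50 UMI limit included Muc16, a giant surface mucin, at 77.2 CPM in control and 148 CPM in cKO, and Bnc1, the zinc finger factor basonuclin, at 112 and 148 CPM. Both were at or under 0.143 CPM in fibroblasts. Among the tested ones, Cldn15, a claudin, stood at 161 and 213 CPM, Rspo1, a Wnt agonist, at 165 and 232 CPM, and Ildr2, a membrane protein of cell contacts, at 165 and 195 CPM. Calb2, the calcium-binding protein calretinin, and Gata4, a transcription factor of mesodermal epithelia, were at 0 in both libraries, where a count of 0 allows up to 10.5 CPM in control and 27.8 CPM in cKO.

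Some genes of the list were shared with smooth muscle or higher in fibroblasts. Wt1 stood at 421 CPM in control and 566 CPM in cKO, but also at 81.0 and 89.5 CPM in fibroblasts and 140 and 258 CPM in smooth muscle (222 and 377 cells with at least 3 UMIs of Myh11 and Actg2). Gata6, a factor of mesoderm, stood at 351 and 408 CPM in mesothelium, 80.5 and 43.0 CPM in fibroblasts, and 324 and 348 CPM in smooth muscle. Both were at least 4-fold above fibroblasts in each library. Pdpn, the mucin-type glycoprotein podoplanin, was lower than in fibroblasts: 312 and 83.5 CPM against 1208 and 1032 CPM. Tcf21, a stromal and mesodermal factor, was lower too, at 42.1 and 92.7 CPM against 293 and 249 CPM.

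A second rule built on other genes found a different set. Barcodes with at least 3 UMIs summed over Msln, Wt1, Bnc1 and Pkhd1l1, under the same limits, numbered 161 in control and 288 in cKO. They held 73.5% of the control members and 68.4% of the cKO members, and these made up 15.5% and 4.51% of the second set. Of its barcodes outside the members, 65.4% in control and 57.8% in cKO had a Pdgfra UMI. Wt1 gave 531 and 1169 of their UMIs against 4 and 0 for Msln. With that set only 1 identity gene was at least 4-fold above fibroblasts in both libraries.

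**Figure D2:**
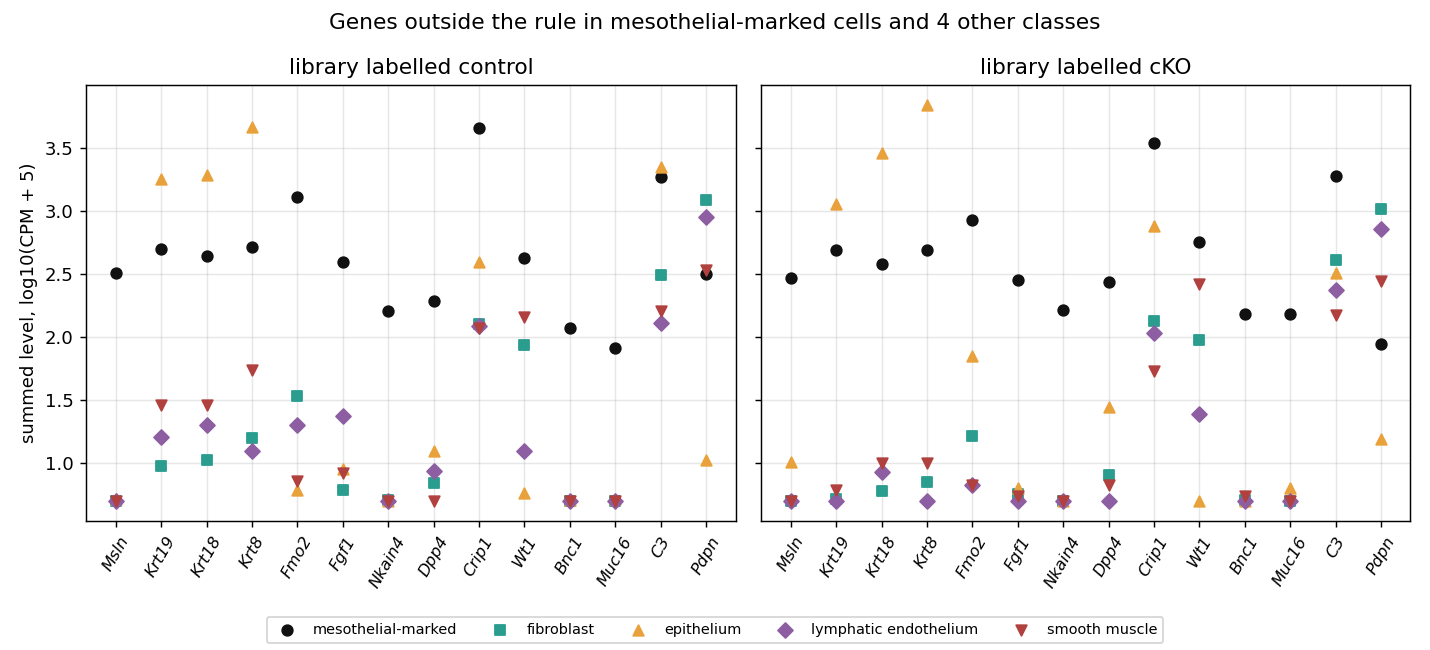
Summed level (log10 of CPM plus 5) of 14 genes that the rule did not use, in mesothelial-marked cells and 4 other rule classes, for each library. Msln, Bnc1, Muc16 and Nkain4 are high in mesothelial-marked cells alone among these classes in both libraries, whereas Krt8 is higher in epithelium, Pdpn is higher in fibroblasts, and Wt1 is shared with smooth muscle. The fibroblast and epithelium classes had 0 UMIs of the rule genes by choice, so cells with such RNA could not enter them. Barcodes past the marker sum with Ptprc or Epcam are not shown, and held 199 Msln UMIs in control and 117 in cKO.

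The mesothelial-marked cells also carried matrix genes of connective tissue. Dcn, the small proteoglycan decorin, was found in 32 of 32 and 12 of 12 cells, at 9779 CPM in control and 13808 CPM in cKO, above the 5840 and 5407 CPM of fibroblasts. Empty droplets held 750 and 1241 CPM of it, and the 53 had 7876 and 8015 CPM. Ogn, the proteoglycan osteoglycin, stood at 1113 and 1530 CPM against 279 and 225 CPM in fibroblasts. C3, the central complement protein and not a matrix gene, stood at 1839 and 1864 CPM against 307 and 404 CPM in fibroblasts. Epithelium had 2204 and 318 CPM of C3, and empty droplets held 779 and 125 CPM. Col3a1, a fibrillar collagen, was lower than in fibroblasts, at 340 and 260 CPM against 848 and 918 CPM, and Pdgfra had 2 UMIs in each library. Dcn and Ogn were thus above the fibroblast level in both libraries, and Col3a1 below it. Pdgfra chose the fibroblasts, so its lower level here follows from that choice. Lum, another proteoglycan, was lower than in fibroblasts in control, at 1028 against 1732 CPM. In cKO it was higher, at 1595 against 1261 CPM.

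Fewer barcodes of the library labelled cKO met the rule. The members were 0.974% of passing cells in control (exact 95% interval 0.676 to 1.36%) and 0.530% in cKO (0.319 to 0.826%), a log2 ratio of -0.88 (-1.77 to -0.03). The mesothelial-marked cells alone were 0.917% and 0.335%, a log2 ratio of -1.45 (-2.55 to -0.46). Shares sum to a whole, and epithelium made up far more of the control library. Among cells with 0 Epcam UMIs the log2 ratio was -1.33 for the 53 and -1.91 for the 44. The cells come from digested tissue, where abundance, release and survival of a cell type cannot be told apart. The limit on mitochondrial UMIs removed 283 barcodes in control and 43 in cKO.

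The limits on Ptprc and Epcam took out nearly as much marker RNA as the members held in control, and more in cKO. In control, 30 barcodes passed the marker sum but had Epcam (28) or Ptprc (3). They held 409 UMIs of the rule genes, against 436 in the members. In cKO there were 19 such barcodes, 12 with Epcam, 11 with Ptprc and 4 of them with both, and they held 587 UMIs against 251. They were deep, with medians of 19898 and 23176 UMIs. Of the control ones, 10 had a single Epcam UMI, and 28 of 30 control and 14 of 19 cKO barcodes had a UMI of Msln, Wt1 or Krt19. No doublet caller was run.

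Prickle1, the planar cell polarity gene named in the genotype, was near its detection limit. The members had 4 UMIs in control, in 3 of 34 cells, and 2 in cKO, in 2 of 19 cells, or 11.1 and 9.94 CPM. The ratio was 0.896, with an exact 95% interval of 0.081 to 6.25. Among the 44 there were 4 UMIs and 1 UMI. In smooth muscle Prickle1 was higher in the library labelled cKO, with 5 and 33 UMIs and a ratio of 3.32 (1.29 to 10.9), and likewise in fibroblasts, with 30 and 128 UMIs and a ratio of 2.47 (1.65 to 3.81). In epithelium the ratio was 3.72 (0.401 to 17.0) and in lymphatic endothelium 0.707 (0.266 to 1.99). The counts in smooth muscle and fibroblasts do not show a loss of Prickle1 in the library labelled cKO. The labels do not say which cells a deletion would affect. A 3' tag reads a gene's end, and whether that end lies in a deleted part was not tested. Every direction below is therefore between the libraries as labelled. Of 23 planar cell polarity genes, only Wnt5a, a ligand of that pathway, reached 50 UMIs in the 44, at 158 CPM in control and 223 CPM in cKO.

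Between libraries, a gene counted as higher or lower when summed CPM differed at least 2-fold, on the scale of log2 of CPM plus 5, which understates changes of low genes. Among the 44, 61 of 1214 genes with at least 50 UMIs were higher in cKO (5.02%) and 99 lower (8.15%). Among the 53, 147 of 1948 were higher (7.55%) and 108 lower (5.54%). The median of all tested genes was -0.04 in the 44 and 0.10 in the 53. These shares are the background for the counts of list members below. At any size of change, 580 of the 1214 genes were higher in cKO and 634 lower in the 44. In the 53, 1093 of the 1948 were higher and 855 lower.

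Most of the highest genes of the 53 dropped out when the 9 barcodes with other markers were set aside, and most of the lowest kept their direction. The 12 highest were Pf4, Cxcl2, Ccl9, Cd36, Cd14, Nr4a3, Akap12, Ednrb, H2-Aa, Cd24a, Ccn2 and Cd74. Pf4, Cxcl2 and Ccl9 are chemokines, Cd36 is a scavenger receptor, Cd14 is a monocyte receptor, and H2-Aa and Cd74 belong to MHC class II presentation. For 9 of the 12, more than 50% of the cKO UMIs lay in 1 cell. Of the 12, only Ccn2 had at least 50 UMIs in the 44, 5 kept their direction and 3 were past 2-fold in it. Pf4 and Cd14 were among the genes by which barcodes were set aside as myeloid, so their fall follows from that choice. Among the 12 lowest (Ifit1, Cxcl5, Mmp3, Igf2bp2, Cryab, Iigp1, Calcrl, Ifi27l2a, Fam180a, Plac8, Ifi205 and Uqcrb), Ifit1, an interferon-induced gene, had 65 control UMIs, of which 83.1% lay in 1 cell. Mmp3, the matrix protease stromelysin, had 85 control UMIs in the 53 but 2 in the 44. Of these 12, 9 kept their direction in the 44 and 8 were past 2-fold in it, Cryab, Ifi27l2a and Uqcrb among them. Only 5 of these 12 had at least 50 UMIs in the 44.

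Among the 12 highest genes of the 44, 7 also had more than 50% of their cKO UMIs in 1 cell, and among the 12 lowest 1 did. A single cell held 48.0% of all cKO UMIs of the 44. Several of the lowest genes had few cKO UMIs, so these counts are not a like measure of spread over cells. The gene with the highest log2 ratio was Ccn2, a matricellular protein and known target of the Hippo pathway's TEAD factors. It had 13 UMIs in control and 57 in cKO, or 45.6 and 529 CPM, a log2 ratio of 3.40 (2.65 to 4.53 for the ratio before 5 CPM was added). It was detected in 5 of 32 and 3 of 12 cells, with 61.4% of the cKO UMIs in 1 cell. The log2 ratio was 3.43 without the deepest cell of each library and 2.75 in the 53. Its relative Ccn1 had 102 and 84 UMIs, at 358 and 779 CPM, a log2 ratio of 1.11 (0.69 to 1.55), 1.05 in the 53 and 0.78 without the deepest cells. Cavin2, a coat protein of caveolae, had 39 and 64 UMIs, at 137 and 593 CPM, a log2 ratio of 2.08, but only 0.31 in the 53. Of the 8 tested genes of the Hippo and mechanotransduction list, these 3 were past 2-fold, all higher, and the list's median was 0.27, and 0.23 in the 53. The share past 2-fold higher over all tested genes of the 44 was 5.02%. Of the transducers, Wwtr1 had a log2 ratio of 0.36 and Tead1 of 0.10.

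The immediate early genes, which are transcribed within minutes of a stimulus, were mostly higher in cKO. Junb, a subunit of the AP-1 factor, had 194 UMIs in control, in 20 of 32 cells, and 265 in cKO, in 11 of 12 cells. Its levels were 681 and 2457 CPM, a log2 ratio of 1.84 (1.58 to 2.13), and 1.61 in the 53. Fos, its AP-1 partner, had 621 and 619 UMIs, at 2180 and 5740 CPM, a log2 ratio of 1.39 (1.23 to 1.56), and 0.96 in the 53. Of 24 tested genes of the immediate early and heat shock list, 8 were past 2-fold higher (Fos, Junb, Egr3, Ier3, Nr4a1, Klf6, Zfp36 and Btg2) and 1 past 2-fold lower, Hsph1, a heat shock protein of the cytosol. Over all tested genes of the 44 the shares were 5.02% higher and 8.15% lower. Without the deepest cells, Ier3 (0.62), Klf6 (0.54) and Zfp36 (0.87) were no longer past 2-fold. In the 53, 5 of 24 were past 2-fold higher and 0 lower. The list's median was 0.62 in the 44 and 0.52 in the 53, against 0.06 for the same genes in fibroblasts.

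Some heat shock genes of the list are given after their values were seen. Hspa1b stood at 3507 CPM in control and 2439 CPM in cKO, a log2 ratio of -0.52. Hspb1 had a log2 ratio of -0.69, Hsp90aa1 of 0.00 and Hspa1a of 0.23. The share of a cell's UMIs on the whole list ran from 0.545 to 11.9% with a median of 1.93% in the 32 control cells, and from 1.14 to 7.86% with a median of 3.82% in the 12 cKO cells. The ranges overlapped, and the highest cell was a control one.

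Genes of oxidative phosphorylation encoded in the nucleus were lower in cKO. These genes build the electron transport chain and ATP synthase of mitochondria. All 11 with at least 50 UMIs in the 44 were lower, 6 of them past 2-fold, and the median log2 ratio was -1.02. By comparison, 634 of all 1214 tested genes were lower in the 44, and 8.15% were past 2-fold lower. In the 53, 14 of 16 genes of the list were lower, 7 past 2-fold, with a median of -0.73. The share past 2-fold lower over all tested genes of the 53 was 5.54%. The fibroblast median for the genes tested in the 44 was -0.09, and without the deepest cell of each library the median in the 44 was -1.10.

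Named members of this list spanned the complexes. Uqcrb, a subunit of complex III, had 60 UMIs in control, in 19 of 32 cells, and 3 in cKO, in 2 of 12 cells, a log2 ratio of -2.72, and -1.94 in the 53. Ndufb9 of complex I had 52 and 7 UMIs and a log2 ratio of -1.42, and -1.52 in the 53. Cox6c of complex IV had 146 and 27 UMIs, at 512 and 250 CPM, a log2 ratio of -1.02 (-1.68 to -0.43), and -1.03 in the 53. Atp5e of ATP synthase had 114 and 18 UMIs, at 400 and 167 CPM, a log2 ratio of -1.24 (-2.07 to -0.54), -1.16 in the 53 and -0.86 without the deepest cells. Atp5b, the catalytic subunit, had -0.06 in the 44. The share of a cell's UMIs on the list ran from 0.122 to 1.22% with a median of 0.427% in control, and from 0.0528 to 0.824% with a median of 0.171% in cKO. The ranges overlapped. The share of UMIs on mitochondrial genes had a median of 1.76% in control and 2.56% in cKO.

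**Figure D3:**
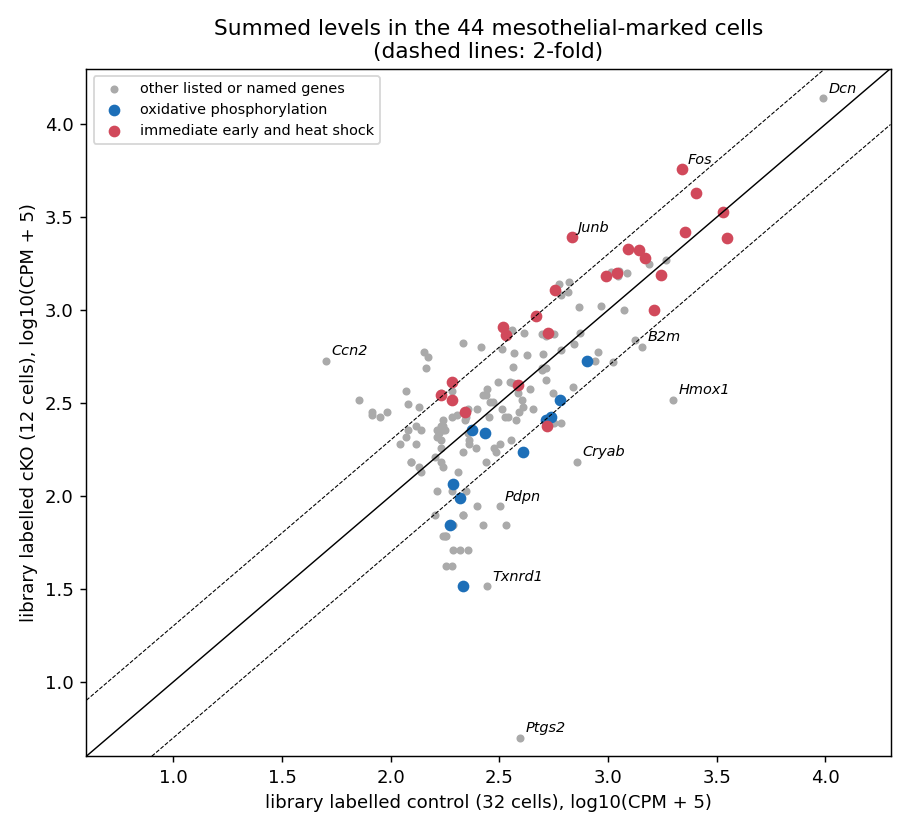
Summed level of listed and named genes with at least 50 UMIs in the 44 mesothelial-marked cells, in the library labelled control (horizontal) and cKO (vertical), both as log10 of CPM plus 5, with dashed lines at 2-fold. All 11 oxidative phosphorylation genes lie below the diagonal, and Junb and Fos lie above the upper dashed line.

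Stress and prostaglandin genes differed between the 44 and the 53. Ptgs2, the inducible cyclooxygenase, had 111 UMIs in the 32 control cells and 0 in the 12 cKO cells, at least 14.0-fold lower against a floor of 3 counts per library. In the 53 it had 111 and 51 UMIs, a log2 ratio of -0.28. Hmox1, the inducible heme oxygenase, had 566 UMIs in control and 35 in cKO, at 1987 and 325 CPM, a log2 ratio of -2.60 (-3.15 to -2.12). In the 53 it had 670 and 625 UMIs, a log2 ratio of 0.74. Txnrd1, thioredoxin reductase, had 78 and 3 UMIs in the 44, a log2 ratio of -3.09, and 91 and 120 UMIs in the 53, a log2 ratio of 1.22. For Hmox1 and Txnrd1 the direction in the 53 was opposite to that in the 44.

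Without the deepest cell of each library the log2 ratio in the 44 was -2.51 for Hmox1 and -2.99 for Txnrd1. The metallothioneins, metal-binding proteins of the same redox list, rested on 1 cell. Mt1 had 73 and 68 UMIs and a log2 ratio of 1.28, but 82.4% of its cKO UMIs lay in 1 cell, and without the deepest cells the value was -0.33. In the 53 it was 0.89. Mt2 went from 1.62 to 0.29 in the same way, and had 1.27 in the 53. Cryab, a small heat shock protein, had 203 and 16 UMIs, a log2 ratio of -2.23, and -1.16 without the deepest cells. In the 53 it was -2.69.

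Interferon-stimulated genes were scarce. Of 48 listed, 3 reached 50 UMIs in the 44. Ifi27l2a, an interferon-induced membrane protein, had 95 and 7 UMIs, at 333 and 64.9 CPM, a log2 ratio of -2.28 (-3.71 to -1.26), and -2.24 in the 53. Bst2, tetherin, had 50 and 6 UMIs and -1.57 (-1.48 in the 53), and Gbp2, a guanylate-binding protein, 36 and 20 UMIs and 0.54. The median over the 3 was -1.57. Cell by cell the list's share of UMIs did not separate the libraries: the median was 0.105% in control (0 to 0.320%) and 0.107% in cKO (0 to 0.149%) in the 44, and 0.109% and 0.0937% in the 53. In the 53, all 6 tested genes were lower, 4 past 2-fold, with a median of -1.86. Fibroblasts showed a median of -0.94 for the 3 genes and -2.03 for the 6, and empty droplets -1.43 and -1.54.

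MHC class I genes, which present peptides at the cell surface, were lower in the 44 for all 5 tested members, 1 of them past 2-fold. Over all tested genes of the 44, 8.15% were past 2-fold lower. B2m, the light chain, had 407 and 68 UMIs, at 1429 and 631 CPM, a log2 ratio of -1.17 (-1.57 to -0.81), and -0.81 without the deepest cells. H2-K1, a heavy chain, had 379 and 74 UMIs and -0.95. In the 53 the values were -0.19 for B2m and -0.47 for H2-K1. The list's median was -0.64 in the 44, -0.22 in the 53 and -0.21 in fibroblasts. Of the chemokine and cytokine list, Cxcl10, an interferon-induced chemokine, had 60 and 8 UMIs and -1.45 (-1.79 in the 53), and Nfkbia, the NF-kappa-B inhibitor, had 187 and 152 UMIs and 1.10 (1.44 in the 53). These were the only 2 tested in the 44.

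Matrix genes past 2-fold in the 44 were few. Of 7 tested genes of the proteoglycan and elastic fibre list, 6 were higher in cKO and 1 was past 2-fold in that direction, Fbln1, the fibulin of elastic fibres, with 37 and 32 UMIs and a log2 ratio of 1.16, and 0.61 in the 53. Ltbp4, a latent TGF-beta binding protein, had 172 and 130 UMIs, at 604 and 1205 CPM, a log2 ratio of 0.99 (0.66 to 1.33), 0.10 in the 53 and 0.59 without the deepest cells. Dcn had 0.50, and 0.03 in the 53. Lum, the keratan sulfate proteoglycan lumican, had 0.63, 0.08 in the 53 and 0.20 without the deepest cells. Bgn, biglycan, was past 2-fold lower, with 160 and 26 UMIs and -1.20 (-1.88 to -0.62), and -1.37 in the 53. The median of 0.63 in the 44 was 0.09 in the 53 and -0.11 in fibroblasts.

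Of 10 tested fibrillar collagen and processing genes, none was past 2-fold in either direction in the 44 and 5 were higher, with a median of -0.09. Col1a1 had a log2 ratio of -0.84, Col1a2 of 0.20, and Sparc, a collagen-binding matricellular protein, of -0.71. In the 53 the median was -0.79, with 3 of 11 genes past 2-fold lower and 9 lower in all. Timp3, an inhibitor of matrix proteases bound to the matrix, had 171 and 26 UMIs in the 44, a log2 ratio of -1.30 (-1.97 to -0.72), and -0.80 in the 53.

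Genes of fibrin balance, a known task of mesothelium, were lower in the 44 for all 5 tested members, 2 of them past 2-fold, with a median of -0.73. Among all tested genes of the 44, 8.15% were past 2-fold lower. Plaur, the urokinase receptor, had 60 and 8 UMIs and a log2 ratio of -1.45. S100a10, a plasminogen receptor subunit, had 300 and 56 UMIs, at 1053 and 519 CPM, a log2 ratio of -1.01 (-1.46 to -0.60), and -0.91 in the 53. F3, tissue factor, had 84 and 19 UMIs and -0.73, and -0.76 in the 53. In the 53 the median was 0.26 over 9 tested genes, 3 of them past 2-fold higher, and Plaur had 0.26. The direction of the median and of Plaur thus changed with the 9 barcodes.

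Genes of TGF-beta and BMP signalling had a median of 0.89 over 10 tested genes in the 44 and 0.14 over 14 in the 53. Without the deepest cell of each library the median of the same 10 genes was 0.50. In the 44, Id2, Id3 and Bmpr1a were past 2-fold higher, as were 5.02% of all tested genes. Id3, an inhibitor of helix-loop-helix factors induced by BMP, had 168 and 149 UMIs and a log2 ratio of 1.22 (0.90 to 1.56), with 73.8% of its cKO UMIs in 1 cell. Without the deepest cells Id3 had 0.83, Id2 0.57 and Bmpr1a, a BMP receptor, 0.89, so that none of the 3 was past 2-fold. Bmpr1a had 47 and 38 UMIs and 1.07. Bmp2, a ligand, was past 2-fold lower, with 54 and 7 UMIs and -1.48, and -0.89 without the deepest cells. In the 53, Id2 had 0.03, Id3 0.86, Bmpr1a 0.50 and Bmp2 -0.64.

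Of 16 identity genes tested in the 44, 0 were past 2-fold higher and 1 was past 2-fold lower, with a median of 0.20, 0.02 without the deepest cells and -0.18 in the 53. Msln had a log2 ratio of -0.15, Krt19 of -0.03, Krt8 of -0.09 and Wt1 of 0.42, each with an interval of the ratio that included 0 on this scale. The gene past 2-fold was Pdpn, with 89 UMIs in control, in 21 of 32 cells, and 9 in cKO, in 5 of 12 cells, a log2 ratio of -1.84 (-3.08 to -0.92), and -0.46 in the 53. Of the mesothelial to mesenchymal transition list, 5 genes were tested in the 44 and none was past 2-fold. Vim, vimentin, had 0.41. C3 had 524 and 201 UMIs, at the similar levels given above, with a log2 ratio of 0.02 (-0.22 to 0.26). Esr1, an estrogen receptor, stood at 274 and 371 CPM.

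**Figure D4:**
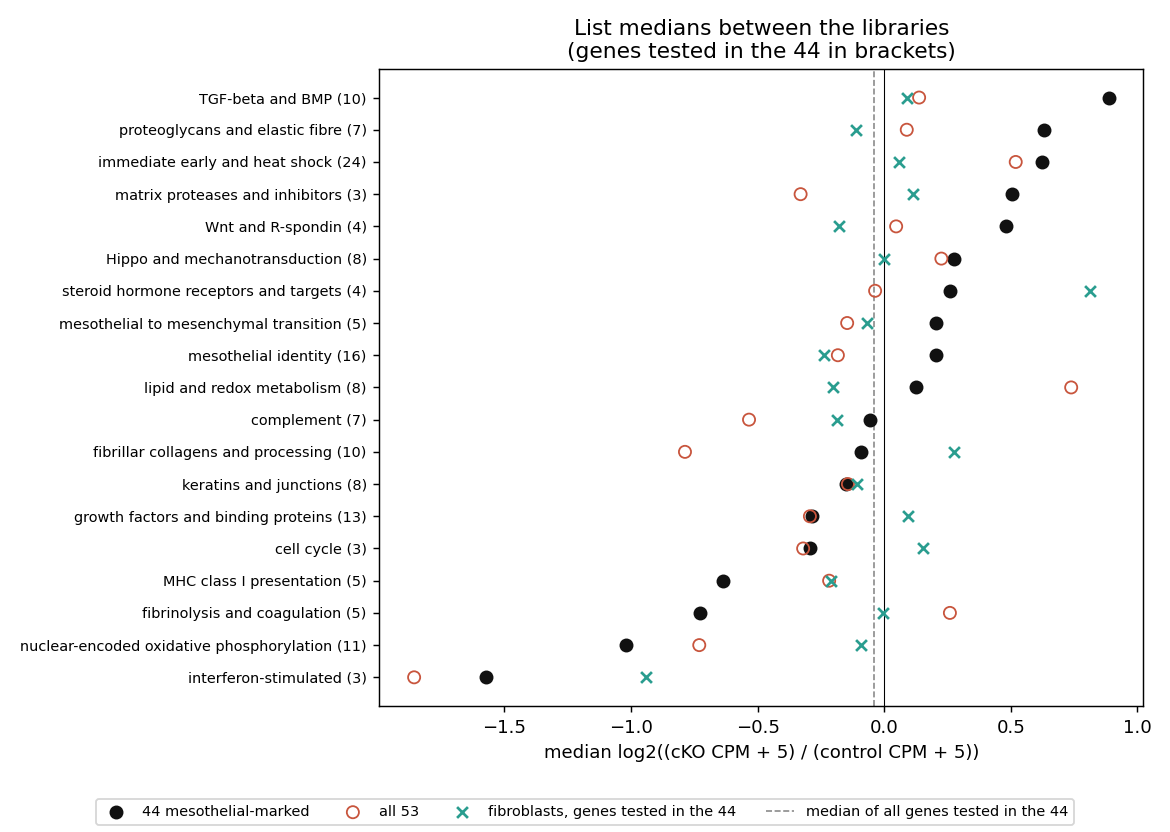
Median log2 ratio of cKO over control for gene lists with at least 3 tested genes, in the 44 mesothelial-marked cells (filled), in all 53 (open circles) and in fibroblasts (crosses, genes tested in the 44), with the median of all tested genes dashed. Oxidative phosphorylation and interferon lists are lower in both sets and immediate early genes higher in both, while the fibrinolysis median is -0.73 in the 44 and 0.26 in the 53.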

How the data were processed

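The submitters' processing notes name Cell Ranger 6.1.1 and the genome build mm10, while the file headers name Cell Ranger 4. Per the file headers, the deposited matrices hold unnormalized UMI counts per gene and barcode. Barcodes were filtered as the report states. Counts were summed over the members of a library and scaled to counts per 1000000 UMIs (CPM). Log2 ratios used a pseudocount of 5 CPM. Tested genes had at least 50 UMIs over both libraries. Intervals were exact at 95% (Poisson, Clopper-Pearson, conditional binomial for ratios) and came from scipy 1.17.1. With 1 library per group no p-value was computed. The calculation was tested on simulated data. Free RNA was read from barcodes with fewer than 100 UMIs. The members, lists and comparison classes were chosen with earlier results of these data known. Genes named were the rule genes, Prickle1, the identity list, the 12 highest and 12 lowest ratios, the 15 highest over fibroblasts and, of each list, up to 4 genes per direction past 2-fold whose interval excludes 1, or else the most abundant 2. Some other list members were named after their values were seen, as were the genes naming the classes. Some listed genes are not reported here. Alternatives are given in the closing section.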

Additional observations from a re-analysis of the deposited data

Results flagged for a closer look

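Rule-gene RNA lay outside the members. Barcodes past the marker sum with a Ptprc or Epcam UMI held 409 UMIs of Upk3b, Lrrn4, Gpm6a and Upk1b in control and 587 in cKO, above the limit of 3 counts that a count of 0 allows. The proteoglycan and elastic fibre list had a median log2 ratio of 0.63 in the 44 mesothelial-marked cells and -0.11 for the same genes in fibroblasts. The difference between the classes was not tested.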

How the results depend on the processing

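No paired analysis was possible because each group is 1 library of pooled mice. Values here are cKO over control in the 53, and the cause of each change was not tested. The share kept its direction in all 12 alternatives (-1.53 to -0.79), and 17 of 24 genes at the extremes did not reverse. Without the 9 barcodes with other markers, chosen after seeing the data, 61 genes were higher, and medians were 0.62 for immediate early genes, 0.20 for identity, -1.02 for oxidative phosphorylation, -0.17 for chemokines, with Mmp3 at 0.25, Cd14 at -1.05, H2-Aa at -3.00 and Cd74 at -2.73. Without those 9 and the deepest cell of each library, added likewise, 43 genes were higher, and medians were 0.73, 0.040 and -1.10 for the first 3 lists, 0.13 for fibrillar collagens, 0.17 for complement and -0.70 for redox genes, with Mmp3 at 0.76, Iigp1 at 0.22, Cd14 at -2.79, H2-Aa at -2.79 and Cd74 at -2.43. Without only the deepest cells, also added, medians were -2.31 for interferon, 0.44 for immediate early, -0.41 for identity and -0.94 for oxidative phosphorylation genes. With no limit on Ptprc and Epcam, also added, 380 genes were higher and 214 lower, and medians were -0.34 for interferon, 0.36 for immediate early and -0.57 for oxidative phosphorylation genes. A marker sum of at least 2 gave -0.74 for interferon, 0.58 for immediate early and 0.18 for fibrillar collagen genes. A sum of at least 5 gave 88 higher genes, 0.71 for immediate early, 0.19 for identity, -1.07 for oxidative phosphorylation and -0.32 for chemokine genes. The rule without Gpm6a gave 63 higher genes, -1.47 for interferon, 0.44 for immediate early, 0.045 for identity and -1.06 for oxidative phosphorylation genes, Mmp3 at 0.026 and Akap12 at -0.66. Members without Pecam1, Myh11, Actg2, Pdgfra or Lyve1 gave 31 higher genes, 0.62 for immediate early, 0.19 for identity, -0.91 for oxidative phosphorylation, 0.22 for complement and -0.89 for redox genes, Mmp3 at 0.52, Akap12 at -0.24, Iigp1 at 0.30 and Cd14 at -2.47. Thinning to 1000 UMIs gave 378 higher and 443 lower genes, -4.15 for interferon, 0.33 for immediate early and -1.44 for oxidative phosphorylation genes, Prickle1 at 3.53 and Plac8 at 2.24. The mean of per-cell CPM gave 186 lower genes, -1.14 for interferon, 0.26 for immediate early, -0.95 for oxidative phosphorylation and -0.026 for redox genes, and Plac8 at 0.34. Scaling by the median of ratios gave 0.42 for immediate early genes. A minimum of 20 UMIs gave 369 higher and 347 lower genes, -1.39 for interferon and -0.75 for chemokine genes. A minimum of 200 gave 26 higher and 20 lower genes, 0.38 for immediate early and -1.08 for oxidative phosphorylation genes. Members chosen by Msln, Wt1, Bnc1 and Pkhd1l1 left 1 identity gene at least 4-fold above fibroblasts. Oxidative phosphorylation stayed below 0 and immediate early genes above 0 under all 18 alternatives each. The 12 cKO cells limit every value of the 44.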
